A study of Mus musculus with 168 samples.

Results

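The interferon regulatory factors are a family of transcription factors, and 8 of them were read out here by Irf1, Irf2, Irf3, Irf4, Irf5, Irf7, Irf8 and Irf9, out of 19752 mouse genes on the array. The members were found by gene symbol in the array's probe annotation, with 9 probe sets in all, and for Irf1, the only gene with more than 1, the probe set with the highest mean log2 intensity over all arrays was kept. The other Irf1 probe set followed the kept one across the arrays of all cell types together (r = 0.91). In macrophages it exceeded the median intensity of the array in 3 of 33 peritoneal and 13 of 33 spleen arrays, and in other cell types in every array. Its likeness to the kept one within a cell type was not tested.

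The data were Affymetrix Mouse Gene 1.0 ST arrays from immune cells of male C57BL/6 mice, 6 weeks old, that received a Janus kinase (JAK) inhibitor or vehicle by gavage. The inhibitors were 5 compounds known here only by code, SB00513404, SB00526221, SB00526222, SB00526226 and SB00526228, and their vehicles were 0.5% MC, called plain vehicle below (39 arrays), and 0.5% MC at pH 3. Cells were macrophages of the peritoneal cavity (F4/80+, label MF), and from spleen macrophages (MF, F4/80+), dendritic cells (DC, FLT3+), natural killer cells (NK, NK1.1+), CD4 T cells (T4, CD4+) and granulocytes (GN, Ly6G+). Titles name 7 experiments, written J2, J3, J6, J8, J12, J23 and J25. Inhibitor groups comprised peritoneal MF and T4 taken early, 1.5 to 6 h after 1 treatment, and late, 18 to 28 h after 1 treatment. Spleen cells were also taken 4 h after the last of 3 treatments, and all cell types after prolonged dosing of 14, 15 or 28 treatments, 14 to 18 h after the last. No dose is given in the sources used here. The 4 h arrays and the late T4 arrays had no vehicle of their own schedule and were set against plain vehicle of the prolonged schedule, and late and prolonged peritoneal MF shared the same vehicle arrays.

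Members of the family share an amino-terminal DNA-binding domain that recognises GAAA repeats in interferon-stimulated response elements. Irf9 is the DNA-binding subunit of ISGF3, the complex that JAK kinases activate at the type I interferon receptor, and both Irf7 and Irf9 are themselves interferon-induced. Irf3, Irf5 and Irf7 act before that step, in the induction of interferon and cytokines after nucleic acid or Toll-like receptor sensing. Irf1 is induced by interferon gamma, Irf2 binds the same sites as Irf1 and can repress them, and Irf4 and Irf8 partner with ETS and AP-1 factors in the development of lymphocytes, dendritic cells and macrophages.

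The promoters of the members differ in whether they hold the sequence elements of these routes, and those of the members the results turn on are printed here as RefSeq gives them for build GRCm38.p6, 5′ to 3′ on the gene's strand, for up to 250 bases before the most upstream listed start. Capitals mark GAAANNGAAA, the repeat that IRF factors recognise, and TTCNNNGAA, the gamma-activated site. GAAANNGAAA was searched on both strands and was present in 2.98% of 32851 mouse windows of this length. TTCNNNGAA reads alike on both strands and was present in 7.02%. The Irf1 window lies at chr11:53769764-53770013 (+ strand) and holds TTCCCCGAA 90 to 82 bases before the start.
Irf1: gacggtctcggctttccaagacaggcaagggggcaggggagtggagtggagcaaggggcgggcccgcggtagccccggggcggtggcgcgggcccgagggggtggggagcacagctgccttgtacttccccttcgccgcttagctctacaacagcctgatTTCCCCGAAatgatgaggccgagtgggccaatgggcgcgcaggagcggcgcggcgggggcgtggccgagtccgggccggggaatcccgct
The Irf2 window lies at chr8:46739495-46739744 (+ strand) and holds GAAAATGAAA 241 to 232 bases and TTCCGAGAA 224 to 216 bases before the start.
Irf2: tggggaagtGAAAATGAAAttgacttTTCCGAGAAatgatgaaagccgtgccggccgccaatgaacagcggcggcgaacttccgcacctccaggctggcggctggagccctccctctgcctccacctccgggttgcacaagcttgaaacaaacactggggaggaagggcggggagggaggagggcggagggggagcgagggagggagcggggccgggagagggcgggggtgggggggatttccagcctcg
The Irf8 window lies at chr8:120736108-120736357 (+ strand) and holds TTCTCGGAA 171 to 163 bases and TTCAGAGAA 153 to 145 bases before the start.
Irf8: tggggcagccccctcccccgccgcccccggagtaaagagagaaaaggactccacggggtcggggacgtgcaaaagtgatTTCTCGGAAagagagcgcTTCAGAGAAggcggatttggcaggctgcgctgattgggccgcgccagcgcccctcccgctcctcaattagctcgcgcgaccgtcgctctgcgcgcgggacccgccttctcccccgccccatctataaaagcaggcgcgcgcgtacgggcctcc
The windows of Irf7, cut to the 175 bases outside the gene at chr7:141266500-141266674 (- strand), and of Irf9, at chr14:55603735-55603984 (+ strand), hold neither element. They are shown because both are interferon-induced genes and the drug comparisons below turn on them.
Irf7: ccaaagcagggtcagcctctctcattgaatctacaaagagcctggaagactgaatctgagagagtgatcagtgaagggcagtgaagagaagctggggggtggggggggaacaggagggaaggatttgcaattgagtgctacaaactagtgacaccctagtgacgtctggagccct
Irf9: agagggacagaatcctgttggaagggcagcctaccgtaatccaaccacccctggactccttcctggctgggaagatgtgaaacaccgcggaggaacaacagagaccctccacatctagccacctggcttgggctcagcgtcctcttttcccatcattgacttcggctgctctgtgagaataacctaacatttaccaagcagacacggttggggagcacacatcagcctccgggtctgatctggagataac
The windows of Irf3 and Irf4 held neither, and that of Irf5 lies wholly inside the gene and is left out, so that 3 of the other 7 members held at least 1 match, and a match or its absence describes only the letters of the window.

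The cell labels were set against marker genes. Defining markers were high where the labels put them: on the log2 scale Flt3 averaged 11.74 in DC, Ncr1 13.38 in NK, Cd3e 12.56 in T4 and Ly6g 13.03 in GN over all arrays of the cell type. Some markers of other cells also exceeded the array median. Of 27 NK arrays Cd3e did so in 27, Cd28 in 27 and Cd4 in 2, and Xcr1 in 12, Clec9a in 10, Batf3 in 26 and Cd8a in 12. Of 39 T4 arrays Klrb1c did so in 16, Eomes in 31 and Ncr1 in 0. Of 20 DC arrays the MF markers Adgre1 and Csf1r did so in 20 each and Mertk in 3. The red pulp macrophage markers Vcam1 and Spic did so in 20 DC arrays each and Cd163 in 0, and the B cell markers Ms4a1 in 20 and Cd79a in 0. Of 16 GN arrays Adgre1 and Csf1r did so in 16 each and Mertk in 1. Their part in the values of the members was not tested. The macrophages labelled spleen carried Gata6, the transcription factor of large peritoneal macrophages, at 11.14 ± 0.27, close to peritoneal MF at 11.17 ± 0.23 (SD), while the other cell types lay at 6.18 to 7.10. Of 3 red pulp macrophage markers, Vcam1 averaged 5.99 and Spic 5.15 in spleen MF, above the array median in 0 of 33 arrays each, and Cd163 averaged 7.64, close to peritoneal MF at 7.41 and above the 5.93 to 6.26 of the other cell types. The spleen MF arrays are therefore called by their label only. Across all arrays the median intensity ranged between 119.5 and 142.3, and 26 arrays correlated less with their own cell type than the rest and are said below to stand apart. All samples are bulk RNA, in which fewer cells of a type and less RNA per cell cannot be told apart.

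In plain vehicle mice every one of the 8 members differed among the 6 cell types, which is the usual state on these arrays, where 94.2% of 12552 genes passed the same test. The members called between pairs of cell types came to 91 of 120, against 52.7% of all gene and pair tests. Both used limma across all genes with the animal as a random block and a Benjamini-Hochberg adjusted p of 0.05. Levels are compared between cell types for 1 gene at a time and not between genes, since probe sets differ in response. Peritoneal MF came only from J12, J23 and J25 and most spleen cells from other experiments, so that tissue and experiment cannot be told apart there. Most peritoneal vehicle arrays were also taken early after 1 treatment, and nearly all spleen vehicle arrays after prolonged dosing. Tissue and schedule thus cannot be told apart there either.

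Irf8 had the widest range of means over the cell types, and those of Irf4 and Irf5 were next and much alike. Irf8 averaged 11.53 ± 0.22 in DC (n = 6), 11.39 ± 0.33 in NK (n = 3), 10.87 ± 0.14 in peritoneal MF (n = 9), 10.50 ± 0.30 in spleen MF (n = 8), 8.72 ± 0.71 in T4 (n = 8) and 7.62 ± 0.30 in GN (n = 5). DC thus stood 3.93 log2 units above GN (SE 0.21, adjusted p = 1.74e-19), and only the neighbours DC and NK did not differ (0.07, adjusted p = 0.835). Irf4, which DC, T cells and macrophages use, averaged 9.35 ± 0.35 in DC, 8.74 ± 0.13 in spleen MF, 8.66 ± 0.20 in peritoneal MF, 7.96 ± 0.91 in T4, 6.30 ± 0.27 in GN and 6.24 ± 0.31 in NK. It exceeded the array median in 0 of 16 GN and 1 of 27 NK arrays, and no drug comparison within these cell types tested it. Both macrophage groups had like values of Irf4, as did GN and NK.

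Irf5, the factor downstream of Toll-like receptors in myeloid cells, was at one level in 3 cell types and lower in the others. It averaged 10.44 ± 0.17 in peritoneal MF, 10.40 ± 0.25 in spleen MF, 10.34 ± 0.29 in DC, 9.28 ± 0.17 in GN, 7.76 ± 0.29 in NK and 7.37 ± 0.67 in T4. None of the 3 pairs among the first 3 was called, DC lay 1.08 above GN (adjusted p = 1.47e-05), and NK and T4 differed by 0.45 (adjusted p = 0.106). Irf3, the factor that responds to cytosolic nucleic acid sensing, had the narrowest means, at 9.04 ± 0.13 in T4, 8.64 ± 0.23 in DC, 8.62 ± 0.38 in NK, 8.39 ± 0.06 in peritoneal MF, 8.32 ± 0.22 in spleen MF and 8.32 ± 0.15 in GN. T4 stood above each of the others, by 0.40 over DC (adjusted p = 0.000567), whereas 5 of the 10 pairs without T4 were not called.

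Irf1 and Irf2, which bind the same sites, were ordered differently. Irf1 averaged 10.70 ± 0.09 in GN, 10.34 ± 0.09 in NK, 10.14 ± 0.19 in T4, 9.87 ± 0.11 in DC, 8.84 ± 0.42 in peritoneal MF and 8.81 ± 0.10 in spleen MF, so that GN lay 1.90 log2 units above spleen MF (SE 0.13, adjusted p = 3.06e-16). Irf2 was highest in the macrophages, where spleen MF averaged 11.66 ± 0.15 and peritoneal MF 11.41 ± 0.08, followed by 11.19 ± 0.12 in GN, 10.75 ± 0.19 in NK, 10.47 ± 0.16 in DC and 10.33 ± 0.17 in T4. For Irf1 the neighbours GN and NK, NK and T4, T4 and DC, and the macrophage groups did not pass, and for Irf2 only DC and T4 did not. Irf2 (peritoneal minus spleen MF, -0.24, adjusted p = 0.00924) and Irf8 (0.44, adjusted p = 0.0359) were the only members that differed between the macrophage groups.

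The interferon-induced members Irf7 and Irf9 were highest in GN and lowest in macrophages. Irf7 averaged 10.06 ± 0.09 in GN, 9.54 ± 0.49 in DC, 9.34 ± 0.21 in T4, 9.32 ± 0.39 in NK, 8.75 ± 0.63 in peritoneal MF and 8.68 ± 0.44 in spleen MF. GN exceeded spleen MF by 1.36 (SE 0.23, adjusted p = 2.94e-06). Irf9 ran over a smaller range, with 10.26 ± 0.13 in GN, 10.14 ± 0.22 in T4, 10.08 ± 0.35 in DC, 9.58 ± 0.07 in NK, 9.57 ± 0.24 in spleen MF and 9.52 ± 0.24 in peritoneal MF. Its values formed a higher set of GN, T4 and DC and a lower set of NK and both macrophage groups, with no pair called within either set and DC above NK by 0.50 (adjusted p = 0.00799).

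**Figure D1:**
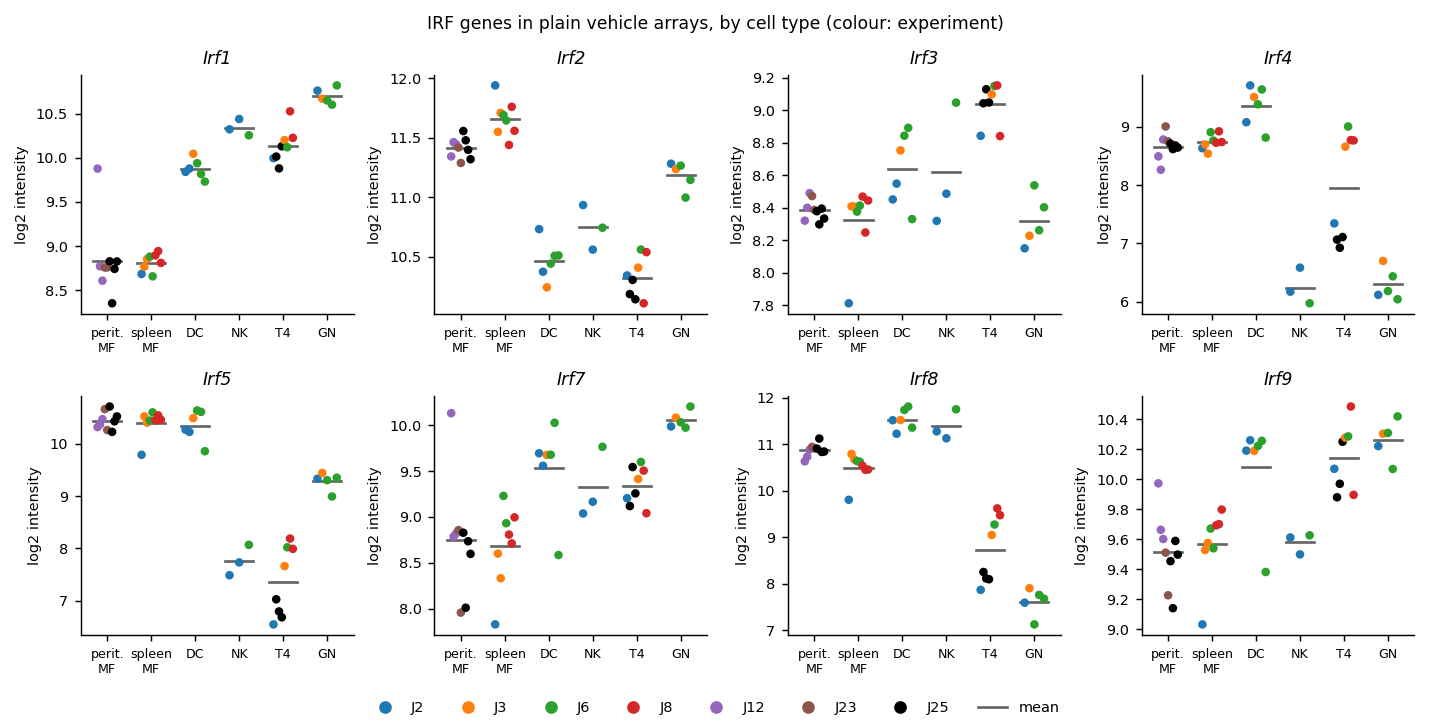
Log2 intensity (y axis) of each IRF gene in the plain vehicle arrays of 6 cell types (x axis), 1 point per array, coloured by experiment. Irf8 spans 7.62 in GN to 11.53 in DC as means, and the T4 points of Irf4, Irf5 and Irf8 separate by experiment.

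The spread of Irf4, Irf5 and Irf8 in T4, wider than in any other cell type, followed the experiments. In the T4 arrays of J3, J6 and J8 (16 arrays) Irf4 averaged 8.79, against 7.09 in those of J2 and J25 (23 arrays), and the values did not overlap (7.71 to 9.20 against 6.58 to 7.60), as in 4.5% of genes. Irf5 averaged 7.83 against 6.90 in the same arrays, and Irf8 stood 1.20 higher in the first set, at 9.21. Among plain vehicle arrays alone, 4 against 4, the means were 8.80 against 7.11 for Irf4, 7.97 against 6.77 for Irf5 and 9.36 against 8.09 for Irf8, with no overlap, as in 27.1% of the 11212 genes tested in T4. The inhibitor arrays, 10 against 18, showed 8.75 against 7.09 for Irf4. This grouping was made after the values were seen and is given without a test. The other 5 members differed by at most 0.24 between these arrays, and in MF, DC, NK and GN the difference of J3, J6 and J8 together minus J2 was -0.19 to 0.08 for Irf4, 0.05 to 0.35 for Irf5 and 0.05 to 0.45 for Irf8, against 1.61, 0.91 and 1.30 in T4. Chosen after the values were seen too, Foxp3, the regulatory T cell factor, averaged 10.57 against 9.50 in T4, Tnfrsf4, an activation receptor, 10.32 against 8.66, Ccr9, a gut homing receptor, 9.65 against 7.75 and H2-Aa, an MHC class II chain of antigen-presenting cells, 8.83 against 6.92, while Cd3e was 12.51 against 12.59. Their part in the values of the members was not tested. Drug comparisons below hold the experiment as a term in the fit.

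**Figure D2:**
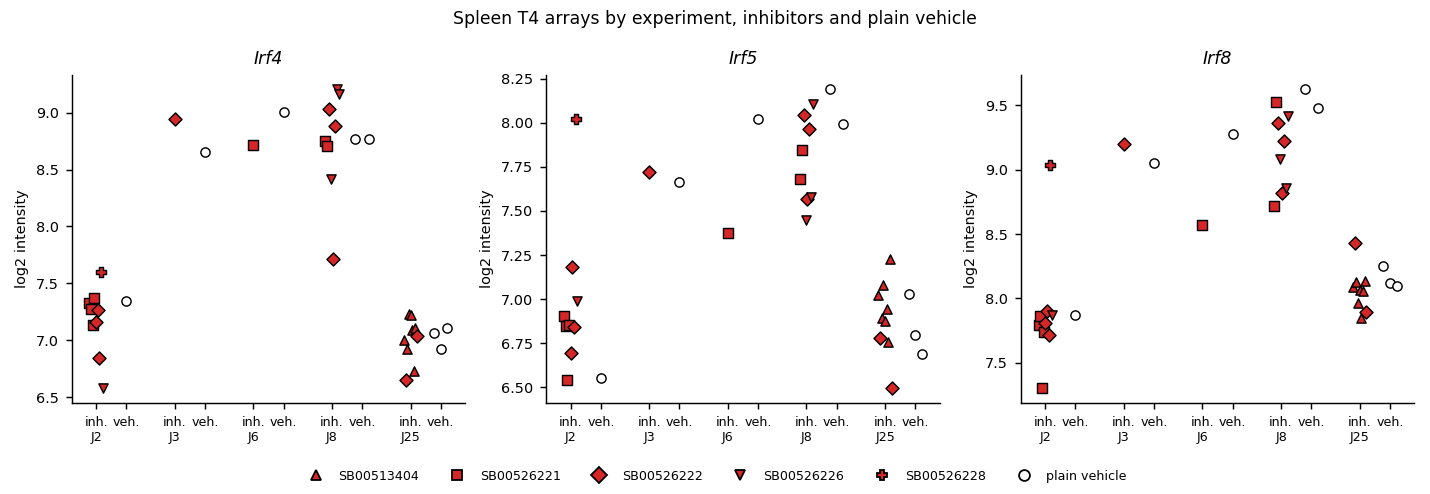
Log2 intensity (y axis) of Irf4, Irf5 and Irf8 in T4 arrays by experiment (x axis), with inhibitor arrays left of plain vehicle arrays in each. Irf4 lies at 7.71 to 9.20 in J3, J6 and J8 and at 6.58 to 7.60 in J2 and J25, in both inhibitor and vehicle arrays.

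To ask which members respond to JAK blockade, all compounds were first pooled and set against plain vehicle in 14 comparisons of a cell type and a schedule. Of 108 member tests 1 was called: Irf9 fell early in peritoneal MF, where 0.092% of genes were called. At an unadjusted p under 0.05 there were 7 member tests (6.48%), against 4.70% of all gene tests. No member was called in the other 13 comparisons. The share of all genes called there was 0.0% in late and prolonged peritoneal MF, DC at 4 h and prolonged, prolonged NK, and late and prolonged T4. It was 0.0182% in spleen MF at 4 h and 0.00908% prolonged, 0.119% in NK at 4 h, 0.00892% in T4 at 4 h, and 0.0455% in GN at 4 h and 0.0273% prolonged. Few genes of any kind passed on these arrays.

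Irf9 was lower in inhibitor-treated peritoneal MF within 6 h of 1 treatment. The 12 inhibitor arrays had a lowest value of 8.77, a median of 9.08 and a highest of 9.81, against 9.23, 9.59 and 9.97 in the 6 plain vehicle arrays. The groups overlapped, since an SB00526222 array and an SB00513404 array of J23 exceeded the lowest vehicle array. Irf9 averaged 9.07 ± 0.29 with inhibitor and 9.59 ± 0.24 with vehicle, and with the experiment in the fit it fell by 0.55 on the log2 scale (SE 0.11, limma adjusted p = 0.0458, lower than the vehicle of its experiment in 10 of 12 arrays). In J12, the 3 h experiment, arrays read 8.79 and 8.83 with SB00526221, 9.14 and 9.14 with SB00526222 and 8.92 and 8.77 with SB00513404, against 9.97, 9.66 and 9.60 with vehicle. In J25, also at 3 h, SB00513404 arrays read 8.81 and 9.15, against 9.59 and 9.50 with vehicle. Neither experiment had overlapping groups. In J23, SB00526222 read 9.81 at 6 h and SB00513404 9.26 at 6 h, 9.19 at 3 h and 9.02 at 1.5 h, against 9.23 in a single 6 h vehicle array that stands apart. The mean difference was thus -0.81 in J12, 0.10 in J23 and -0.56 in J25.

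The call for Irf9 lay close to the threshold. With each of the 18 arrays left out in turn the change ran between -0.69 and -0.46 and the adjusted p between 0.00173 and 0.358. It passed only without the J23 vehicle array (Vehicle replicate 4), the J23 SB00526222 array or SB00513404 replicate 7, and the change of -0.46 came without Vehicle replicate 1 of J12. In the labels, J12 cells were separated by dissection and trimming and the J23 and J25 peritoneal cells on a FACSAria, and the part of this in the difference between experiments was not tested.

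Irf7, which feeds interferon signals forward into more interferon, moved in the same arrays as Irf9 without passing. Its inhibitor arrays ran between 7.82 and 8.57 with a median of 8.14, against 7.96 to 10.13 and 8.76 in vehicle arrays. The estimate was -0.69 (SE 0.20, unadjusted p = 0.00200, limma adjusted p = 0.463, lower in 8 of 12), with -1.23 in J12, 0.43 in J23 and -0.41 in J25. Vehicle replicate 1 of J12, at 10.13, was the highest, and the same array had the highest Irf9 and, at 9.88, the highest Irf1. With each array left out in turn the estimate for Irf7 ran between -0.94 without Vehicle replicate 4 of J23 (adjusted p = 0.0227) and -0.43 without Vehicle replicate 1 of J12 (adjusted p = 1.00), and it passed in 1 of 18 such fits. Among 8 other alternatives it passed in 1, without the arrays that stand apart (-0.92, adjusted p = 0.0274). Irf1 changed by -0.20, and the remaining members by -0.04 to 0.14. Late after 1 treatment the estimates were -0.26 for Irf7 and -0.07 for Irf9, and after prolonged dosing 0.12 and 0.15. The early change against vehicle minus the late change against vehicle was -0.48 for Irf9 (SE 0.19, limma unadjusted p = 0.0172, adjusted p = 0.879). In this difference 0.0% of genes were called.

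**Figure D3:**
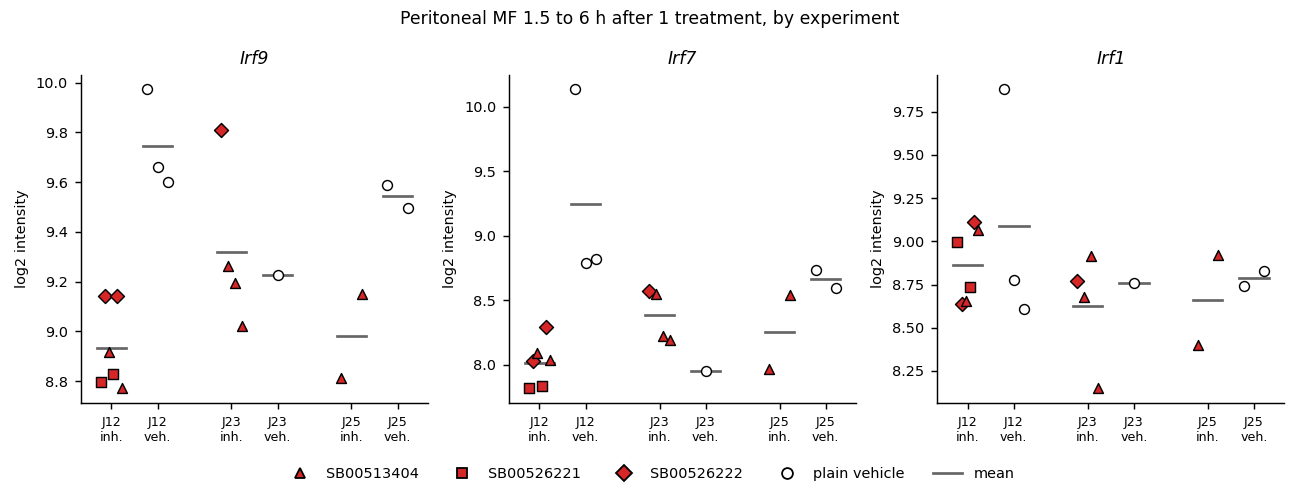
Log2 intensity (y axis) of Irf1, Irf7 and Irf9 in peritoneal MF 1.5 to 6 h after 1 treatment, by experiment (x axis). Inhibitor arrays (red) lie left of plain vehicle arrays (white), and marker shapes show compounds. Inhibitor arrays of J12 and J25 lie below their vehicle arrays for Irf9, and the single J23 vehicle array, at 9.23, lies among its inhibitor arrays.

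Genes that ISGF3 is known to induce were read from a list beside the members. The list was chosen with earlier results of these data known, so it is no independent support for the Irf9 call. In early peritoneal MF 5 of its 8 tested genes were called lower, where 0.092% of genes were called. All 8 had estimates below 0, with a list median of -0.90 against 0.02 over all genes. Xaf1, a pro-apoptotic factor, fell by 0.83, and Rtp4, a chaperone of G protein-coupled receptors, by 1.69. The oligoadenylate synthetase genes Oas2 and Oasl2 fell by 1.08 and 1.20, and Ifit1, which binds viral RNA, by 0.83. The limma adjusted p of these 5 lay between 0.0014 and 0.0458. Of 6 IRF1 and interferon gamma targets 0 were called, all 6 with estimates below 0 (median -0.15), among them Nlrc5, the class I transactivator, at -0.21, and Tap1, a peptide transporter, at -0.29. Nor was any called of 5 genes between the type I interferon receptor and ISGF3 (Stat2 -0.37, Jak1 0.08), of 4 in the interferon gamma receptor chain, of 7 sensor adaptors and kinases upstream of Irf3, Irf5 and Irf7, or of 7 partners of IRF factors. Elsewhere the calls among these lists were Ifi27l2a in prolonged spleen MF (-0.95), Ifit1 in NK at 4 h (-1.63), and Rsad2 (-1.73) and Ifit3 (-2.02) in GN at 4 h, all lower. The ISGF3 target medians in the comparisons other than early peritoneal MF ran between -0.91 in GN at 4 h and -0.17 in late peritoneal MF.

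After repeated dosing the members showed small differences in spleen cells, none of them called. Irf7 in prolonged T4 had 8.36, 9.09 and 9.44 as the lowest, median and highest of 19 inhibitor arrays, against 9.04, 9.42 and 9.60 of 7 vehicle arrays, and an estimate of -0.28 (SE 0.09, unadjusted p = 0.00676, adjusted p = 0.975, lower in 16 of 19). At 4 h it was -0.44 in T4 (SE 0.16, adjusted p = 1.00, lower in 4 of 5). Irf9 in NK at 4 h was -0.25 (SE 0.12, adjusted p = 0.423). Irf5 in GN at 4 h read 8.61 with SB00526221, 8.73 and 8.58 with SB00526222 and 9.06 with SB00526226, against 9.33 in the only vehicle array of that experiment, an estimate of -0.59 (SE 0.22, adjusted p = 0.793).

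Groups that did not overlap, with all vehicle arrays of a comparison counted, were found in 1 of the 108 member tests, against 3.01% of all gene tests. This was Irf8, needed for macrophage and dendritic cell identity, in peritoneal MF after 14 treatments, a comparison in which 7.08% of genes did not overlap. There the 4 inhibitor arrays read 10.67, 10.40, 10.79 and 10.74, against 10.91, 10.95 and 11.13 in the 3 vehicle arrays, 2 taken 18 h after 14 treatments and 1 taken 19 h after 1 treatment. The estimate was -0.33 (adjusted p = 0.977). Estimates for Irf1 across the spleen comparisons lay between -0.18 and 0.26, for Irf2 between -0.23 and 0.11 and for Irf3 between -0.03 and 0.21, none called. A limma interaction test of the prolonged change among the 5 spleen cell types called 0 members, where 0.251% of 13130 genes were called. No member reached an unadjusted p of 0.05 in it (lowest 0.0917 for Irf4). For Irf4 it also used the GN and NK arrays, in which that gene was seldom above the array median.

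**Figure D4:**
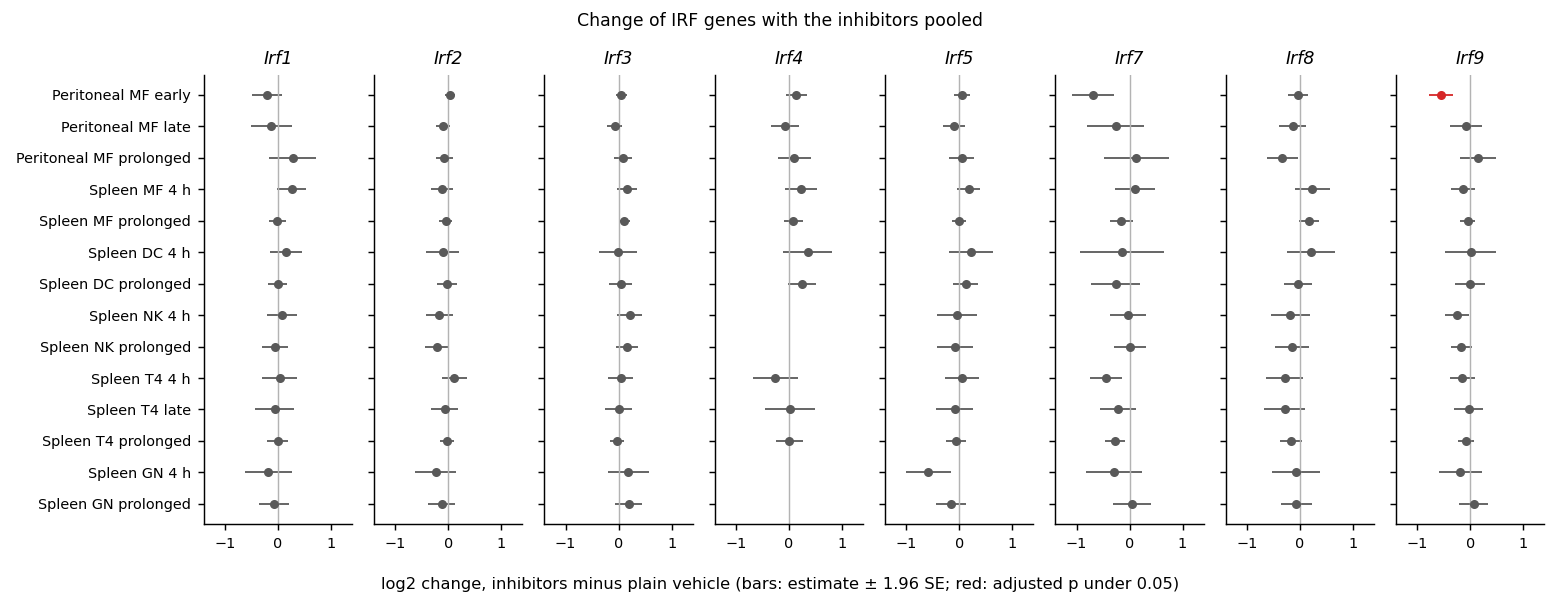
Log2 change of each IRF gene, pooled inhibitors minus plain vehicle (x axis), in the comparisons of a cell type and schedule (y axis), as estimate and 1.96 SE. The change of Irf9 in early peritoneal MF, -0.55, is the only one past the adjusted threshold.

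The inhibitor arrays at 4 h were also set directly against prolonged ones in the 5 spleen cell types. No member was called among 38 tests, where 0.318% of all gene tests were, and 1 member test had an unadjusted p under 0.05, Irf1 in spleen MF at 0.27 (adjusted p = 0.42). The pH 3 vehicle gave no call among 23 member tests against plain vehicle, with 0.0% of all gene tests called. Of the member tests 1 had an unadjusted p under 0.05, Irf8 in spleen MF at 0.35. The plain vehicle arrays there include that of J2, which stands apart and was the lowest of 8 in Irf8, at 9.81 (next 10.46). Estimates of the pH 3 vehicle were 0.08 to 0.49 for Irf7, 0.12 to 0.21 for Irf9 and -0.30 to -0.06 for Irf1.

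Each compound was then set against plain vehicle in 44 comparisons, which share their vehicle arrays. Among 339 member tests 34 had an unadjusted p under 0.05, against 4.65% of all gene tests, and 2 were called, both in 1 array. This T4 array of prolonged SB00526228, from J2, had 8.02 for Irf5, against 6.54 to 7.18 in the other J2 T4 arrays, and 9.04 for Irf8, against 7.30 to 8.08. The estimates were 1.18 for Irf5 (SE 0.25, adjusted p = 0.00596) and 1.04 for Irf8 (SE 0.27, adjusted p = 0.0448) in a comparison in which 1.68% of genes were called. With 1 array the fit takes its spread from the other groups. Without any 1 of Vehicle replicates 1 to 4 Irf8 no longer passed (0.97 to 1.04, adjusted p between 0.0565 and 0.172), and with no experiment term it was 0.23 and Irf5 0.56, neither called. The array stands apart, and markers of other cells were high in it: all 3 DC, all 3 conventional DC 2 and all 3 GN markers exceeded every one of the 38 other T4 arrays, as did 3 of 4 conventional DC 1 and 2 of 4 plasmacytoid DC markers. The mean of the GN markers was 10.01 against 5.05 to 6.03, of the DC markers 9.14 against 7.38 to 7.81 and of the conventional DC 2 markers 9.57 against 5.77 to 7.17. Flt3 read 9.46 against 5.92 to 6.64, and Ly6g 10.16 against 5.36 to 6.76, while Cd3e, at 12.45, lay within the 12.06 to 12.86 of the others but below the 12.53 to 12.86 of the other 10 J2 arrays. Their part in the values of Irf5 and Irf8 was not tested.

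In the remaining single-compound comparisons no member was called, against 0.0205% of all gene tests. Irf7 varied most by compound there and is given in full. The estimates lay below 0 in all 10 comparisons of SB00526221, at -1.12 to -0.02, and in all 6 of SB00513404, at -0.60 to -0.17, and none passed. The estimates of SB00526222 ran between -0.62 and 0.41 in 14 comparisons, those of SB00526226 between -0.06 and 0.89 in 9 and those of SB00526228, without the T4 array described above, between 0.08 and 0.90 in 4. For prolonged SB00526221 the estimate was -0.50 in spleen MF (SE 0.15, adjusted p = 0.179), -0.54 in T4 (SE 0.13, adjusted p = 1.00), -0.35 in DC and -0.02 in NK, and at 4 h -0.82 in T4 (adjusted p = 0.106). In GN the single prolonged SB00526221 array read 9.11, against 9.98 to 10.21 in vehicle arrays, and both SB00526228 arrays, at 11.11 and 10.67, lay above them. In early peritoneal MF the estimates for Irf7 and Irf9 were -1.12 and -0.76 with SB00526221, -0.62 and -0.26 with SB00526222, and -0.60 and -0.62 with SB00513404 (adjusted p = 0.0634 for Irf9). A single T4 array taken 3 h after SB00513404, set against 1 vehicle array, gave -0.59 and -0.67.

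**Figure D5:**
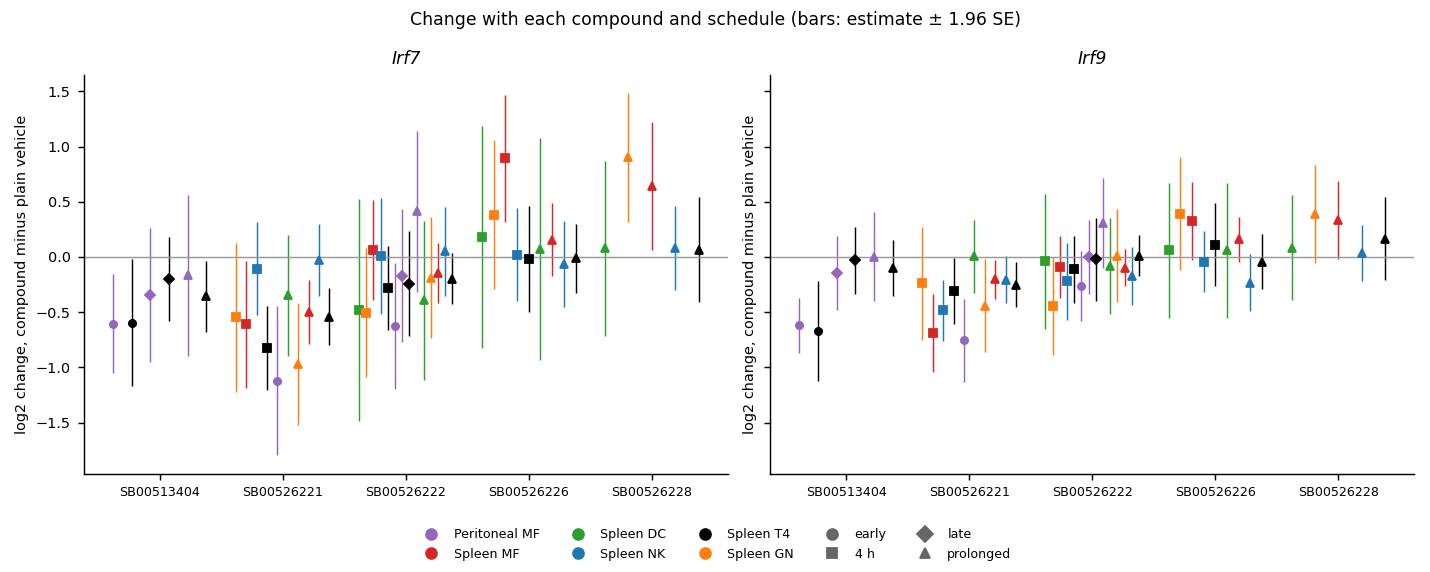
Log2 change of Irf7 and Irf9, each compound minus plain vehicle (y axis), by compound (x axis) and cell type and schedule (colour and symbol), as estimate and 1.96 SE. All Irf7 estimates of SB00526221 and SB00513404 lie below 0 and all of SB00526228 above it, none called.

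Compounds were compared with each other directly, at the same cell type and schedule, in 50 pairs and 385 member tests, with p-values adjusted over genes within each pair. Structures are not given for these codes, so the pairs are differences between codes only. An unadjusted p under 0.05 was found in 52 member tests (13.5%), against 4.79% of all gene tests, in pairs that share arrays. Of the member tests 9 were called. Of these, 7 set the T4 SB00526228 array described above against other compounds (Irf5 by 1.32 to 1.49 over 3 of them, Irf8 by 1.18 to 1.37 over 4), in comparisons that called 1.72% of all gene tests. The other 2 lay in spleen MF at 4 h, between 1 array of SB00526226 and 1 of SB00526221, where 0.963% of genes were called. Irf7 read 9.13 with SB00526226 and 7.63 with SB00526221, a difference of 1.50 (SE 0.36, adjusted p = 0.0441), and Irf9 read 9.58 and 8.56 in the same arrays, a difference of 1.02 (SE 0.22, adjusted p = 0.0233). Both SB00526222 arrays lay between them, at 8.37 and 8.25 for Irf7 and 9.35 and 8.96 for Irf9. The SB00526221 array stands apart, so that no value without it exists, neither compound has a second array there, and the SE and p rest on the spread of the other groups alone.

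The other pairs called no member, against 0.00647% of all gene tests. SB00526228 minus SB00526221 gave 1.87 for Irf7 in prolonged GN (SE 0.41, interval of 1.96 SE 1.06 to 2.67). It gave 1.14 in prolonged spleen MF (SE 0.30, 0.55 to 1.73), and in both pairs 1 of the compounds had a single array. The same difference in prolonged T4, 0.61, is not one of these other pairs. It rests on the single SB00526228 array described above, in which DC and GN markers were high. SB00526226 minus SB00526221 gave 0.66 in prolonged spleen MF (SE 0.18, 0.30 to 1.02, adjusted p = 0.613), 0.53 in prolonged T4, 0.80 in T4 at 4 h and 0.93 in GN at 4 h. In NK the differences of Irf7 between compounds lay between -0.11 and 0.15, with intervals of 1.96 SE that reached -0.53 and 0.66. These comparisons share arrays and are set side by side as values.

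Among all genes, the ones most like each member were found by Pearson correlation, once over levels in the 39 plain vehicle arrays and once over deviations of all arrays from the mean of their cell type and experiment, as descriptions over arrays that share cell types and experiments. Irf7 and Irf9 were each other's closest member in deviations (r = 0.84), and Irf9 headed the list of Irf7 in vehicle levels (r = 0.86). Next to Irf7 in deviations came Dhx58, a regulator of RNA sensing (r = 0.81), and Oas3, an oligoadenylate synthetase (r = 0.79, and 0.75 with Irf9). In deviations no other pair of members exceeded the r of 0.51 between Irf5 and Irf8, while in vehicle levels Irf1 also followed Irf7 (r = 0.80) and Irf9 (r = 0.76). In vehicle levels, which are set by cell type, Irf5 followed Cst3, a cathepsin inhibitor of myeloid cells (r = 0.97), Irf8 followed Phlpp2, a phosphatase (r = 0.96), Irf2 followed Tcn2, a cobalamin carrier (r = 0.95), Irf1 followed the integrin Itgal (r = 0.94), Irf4 followed S100a4 (r = 0.92) and Irf3 followed H2-Q4, a class I gene (r = 0.91). In deviations the closest genes were Unc93b1, the Toll-like receptor chaperone, to Irf5 (r = 0.75), Josd2 to Irf3 (r = 0.74), Apbb1ip to Irf2 (r = 0.70), Rrn3 to Irf4 (r = 0.63), Grina to Irf8 (r = 0.60) and Tap1 to Irf1 (r = 0.54).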

How the data were processed

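The values used are the intensities the authors deposited for each array, on a linear scale, made with RMA in Affymetrix Power Tools per the submitters' processing notes, with no genome build or version named there. Every deposited column belongs to a sample used here. RMA scales arrays to like distributions, so that a change shared by all genes is not seen, and probe sets differ in response, so that levels are not comparable between genes. Of 24922 probe sets, 21425 had 1 gene symbol, 1399 several and 2098 none, and those with 1 symbol gave 19752 genes, each by its brightest probe set.

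Log2 intensity was fitted with limma 3.58.1 (R 4.3.3) in each cell type, with group and experiment as terms, for genes above the array median in at least 3 arrays. P-values were adjusted by Benjamini-Hochberg over the genes of a comparison. The baseline and interaction fits used the animal as a random block, taking the number in the title within an experiment as 1 of 80 animals. Arrays of a group are otherwise replicates whose origin in separate mice follows from those titles only. The number of arrays limits precision. Named genes were all 8 members, every list gene past the threshold, and up to 2 others per list or the closest genes by correlation. The members and lists were chosen with earlier results of these data known. Alternatives changed the normalization, expression filter, pseudocount, experiment term, array weights, probe set rule and arrays included. The pooled fits were tested on simulated data. A log2 change of 1 was recovered in 5% of the changed genes in GN at 4 h and in 53% in DC at 4 h. In the other comparisons it was recovered in 66% (late T4) to 100% (prolonged spleen MF). A change of 0.5 was recovered in 0% in GN at 4 h, 1% in DC at 4 h and at most 85%, in early peritoneal MF. The absence of a call therefore says little in GN and DC at 4 h. Sequences are RefSeq's.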

Additional observations from a re-analysis of the deposited data

Results flagged for a closer look

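A sample lay far from the rest of its group in 15 of 152 tests of a gene in a group, where the nominal rate is about 1 in 20. Tests of genes in the same array are not independent, and the share over all genes is not given here. The count is therefore not a result about the members. The plain vehicle array of spleen MF in J2, which stands apart, was lowest of 8 in 4 members: Irf3 at 7.81 (next 8.25), Irf5 at 9.79 (next 10.40), Irf8 at 9.81 (next 10.46) and Irf9 at 9.03 (next 9.53). The plain vehicle DC array of J6 (replicate 6), which also stands apart, was lowest in Irf7 at 8.58 (next 9.56) and Irf9 at 9.38 (next 10.19). Other arrays that stand apart were lowest in their group: an SB00526222 DC array in Irf7 at 8.08 (next 9.41), an SB00526222 spleen MF array in Irf4 at 8.47 (next 8.85), an SB00526226 spleen MF array in Irf7 at 8.20 (next 8.71) and an SB00526222 T4 array of J8 in Irf1 at 9.71 (next 10.16). Among arrays that do not stand apart, Irf1 was highest in early peritoneal MF vehicle replicate 1 of J12 at 9.88 (next 8.83), in an SB00526222 DC array at 10.20 (next 9.85) and in an SB00526221 T4 array at 10.57 (next 10.12). Irf2 was lowest in an SB00513404 array of early peritoneal MF at 11.22 (next 11.38) and in an SB00526221 spleen MF array at 11.37 (next 11.61).

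At 4 h every inhibitor array of GN lay below the vehicle of its experiment and every one of the other cell type above it in 4 pairings, and these differences were not tested. The same pattern was found in 6.59% of all genes for GN against spleen MF and in 7.9% for GN against DC. Irf1 was -0.18 in GN, against 0.26 in spleen MF and 0.15 in DC, and Irf5 was -0.59 in GN, against 0.18 in spleen MF and 0.22 in DC. The GN and the spleen MF arrays at 4 h sit in an experiment with 1 vehicle array of each cell type. That of spleen MF stands apart and was the lowest of 8 in Irf5, at 9.79 (next 10.40). None of these changes was called.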

How the results depend on the processing

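The count of members called early in peritoneal MF, 1 as reported, was 0 with no experiment term, 0 with no expression filter, 0 with log2(value + 16) and 2 without the arrays standing apart, and between 0 and 2 with each array left out in turn; over all genes 10 were called, 31 with array weights and 24 without the arrays standing apart. Late peritoneal MF had 0 calls as reported and 1, Irf5, with array weights. Single compounds gave 2 member calls, and 1 with no experiment term, an alternative chosen after seeing the data (Irf7 with SB00526221 in T4 at 4 h). The change of Irf9 in early peritoneal MF kept its direction, at -0.67 to -0.52, and passed in 5 of 8 alternatives (adjusted p between 0.00193 and 0.0951). For the T4 SB00526228 array, Irf5 passed in 6 of 8 (0.56 with no experiment term, adjusted p = 0.715, and 1.03 with a random experiment block, adjusted p = 0.256) and Irf8 in 6 of 8. The spleen MF pair at 4 h, whose alternatives were also added after seeing the data, passed in 5 of 8 for Irf7 and 7 of 8 for Irf9. No value without the arrays standing apart could be had for either of these single arrays. In the baseline all 8 members passed under each of 7 alternatives and 85 to 94 pairs were called, leave-outs included. No result reversed. No paired analysis was possible because inhibitor and vehicle arrays come from different mice and replicate numbers, given in array order, pair none of them; the animal taken from the titles joins cell types only. Groups of 1 to 3 arrays, most at 4 h, limit what could be called.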
